A study of Mus musculus with 12 samples.

Results

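Transcripts of 5 collagen chain genes, Col8a1, Col8a2, Col9a3, Col18a1 and Col23a1, were examined in brain sections of 12 mice. The count table holds 15928 genes without names. A gene received a name where its mean normalized count matched a single entry of the study's own DESeq2 table, and 1349 genes were named in this way. The 5 chains are those of the 44 collagen chain genes searched for that received a name. Col4a3 and Col4a4 are also in the naming table, could not be matched, and were not analysed here.

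RNA-seq was made from 5 wild type (Wt) and 7 Tg2576 (Tg) mice, the latter carrying human APP with the Swedish mutation, to compare transcript levels between the genotypes. The sample labels give an age of 11 months for all mice. Each specimen held dorsal hippocampus and cortex together, so the regions cannot be told apart. Libraries were prepared and sequenced in 2 batches, and total counts per mouse ran from 15768135 to 20996174. Batch 1 held Wt mice 12 (female), 41 and 95 (both male) and Tg mice 32, 91, 92, 93 (all female) and 67 (male). Batch 2 held Wt females 79 and 80 and Tg males 68 and 69, and there the effects of sex and genotype cannot be told apart.

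The labels were first checked against App and Xist. App, the mouse gene that corresponds to the transgene, was at 1214 to 1496 CPM (counts scaled to a common library total) in Wt mice and 2991 to 5727 CPM in Tg mice. Whether reads of the human transgene are among these counts was not tested. Xist, which is transcribed from the inactive X chromosome of females, was at 149.5 to 233 CPM in the 7 mice labelled female. Wt mouse 41 is labelled male and had 199 CPM of Xist, while the 4 other males had at most 0.0563 CPM. Its sex label was kept, and fold changes of the chains are given with and without this mouse.

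Collagens are extracellular proteins whose chains are wound together into a helix, and they differ in the assemblies they form. Some build sheets or basement membranes, some sit on the surface of fibrils, and a few span the plasma membrane. In brain, collagens are found mainly in vessel walls, meninges and the basement membranes of the choroid plexus, while some membrane-bound chains are made by neurons.

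Levels below are CPM after TMM normalization, Wt values are listed in the order of mice 12, 41, 79, 80 and 95, and fold changes are log2 values of Tg against Wt from edgeR with sex and batch as covariates. The names come from a table of genes taken from the study's test of this same contrast, which bears on every Tg against Wt value. Of the 1349 named genes, 81.3% had an unadjusted p under 0.05 in edgeR, against 7.19% of all 15928 genes. The comparisons between genotypes are therefore descriptions of these mice. At an adjusted p under 0.1 edgeR called 1 of 15928 genes (0.00628%), App, and 0 of the 5 chains, all 5 of which had an unadjusted p under 0.05. DESeq2 called 2 of the 5 and 56 genes in all (0.352%), and limma-voom called 0 of the 5 and 1 gene in all (0.00628%). In DESeq2 1226 genes had an unadjusted p under 0.05 and all 1226 had a name, so the calls by DESeq2 are not independent of the naming.

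Col8a1 and Col8a2 encode the chains of type VIII collagen, a short-chain collagen that forms hexagonal networks under endothelia. On GRCm38, Col8a1 lies at chr16:57624258-57754737 on the minus strand with 4 merged exons, and Col8a2 at chr4:126286793-126314330 on the plus strand with 5. The 250 bases before their starts (RefSeq, GRCm38.p6, chr16:57754738-57754987, minus strand, and chr4:126286544-126286793, plus strand) are shown because these chains were higher in the same mice, with the letters GGGCGG or their reverse complement CCGCCC, called a GC box, in capitals.
Col8a1: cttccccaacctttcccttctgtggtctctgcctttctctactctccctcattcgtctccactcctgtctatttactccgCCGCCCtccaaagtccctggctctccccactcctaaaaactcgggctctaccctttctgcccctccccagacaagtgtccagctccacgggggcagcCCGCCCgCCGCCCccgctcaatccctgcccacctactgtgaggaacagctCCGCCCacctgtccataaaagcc
Col8a2: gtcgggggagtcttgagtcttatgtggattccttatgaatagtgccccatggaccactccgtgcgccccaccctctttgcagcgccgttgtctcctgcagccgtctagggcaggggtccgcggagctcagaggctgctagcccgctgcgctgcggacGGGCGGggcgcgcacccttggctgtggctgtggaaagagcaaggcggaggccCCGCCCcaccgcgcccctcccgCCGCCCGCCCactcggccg
Each of these windows holds 4 GC boxes, overlapping matches included, and 32.7% of 32851 mouse promoter windows of this length hold at least 1. GC content was 60.8% for Col8a1 and 70% for Col8a2, beside a median of 52.4% over all windows. Neither window holds TATAAA or CCAAT on either strand, letters found in 12.4% and 33.8% of all windows. A match of letters is a description and shows no binding.

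In Wt mice Col8a1 was at 3.91, 2.83, 2.20, 2.13 and 1.69 CPM, and in the 7 Tg mice the lowest, median and highest values were 1.56, 6.48 and 11.6 CPM. Tg mice 32, 68, 69, 91 and 92 were above all Wt mice, mouse 67 was within their range, and mouse 93 was below all of them, so the groups overlapped. The mean was 2.55 ± 0.862 CPM in Wt (SD, n = 5) and 6.31 ± 3.37 CPM in Tg (SD, n = 7). The fold change of Col8a1 was 1.32 (SE 0.413, adjusted p = 0.611), and 1.46 without mouse 41. It was 0.17 with a score of choroid plexus markers or of oligodendrocyte markers in the model, both described with the marker lists, and 0.63 in batch 1 alone. An exact two-sided permutation test over all arrangements of the mice into groups of 5 and 7, whose smallest possible p is 0.00126, gave p = 0.0442. This test, also used for the other chains, held neither batch nor sex fixed. It uses the contrast through which the genes were named. In bulk tissue, more cells of a type and more RNA per cell cannot be told apart.

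Col8a2 was at 2.45, 1.11, 2.43, 2.42 and 2.93 CPM in Wt mice, and its lowest, median and highest Tg values were 1.17, 9.55 and 11.9 CPM. The same 5 Tg mice as for Col8a1 were above all Wt mice, and mice 67 and 93 lay within the Wt range. The 5 high mice began at 8.08 CPM, and no mouse of either group lay between 2.93 and 8.08 CPM. Means were 2.27 ± 0.681 CPM in Wt (SD, n = 5) and 7.50 ± 4.27 CPM in Tg (SD, n = 7), a ratio of 3.31. The fold change was 1.75 (SE 0.505, adjusted p = 0.611), and 1.61 without mouse 41, with p = 0.0581 by exact permutation. It was 0.17 with the choroid plexus score, 0.22 with the oligodendrocyte score and 0.91 in batch 1 alone.

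Per kilobase of merged exon, Col8a2 stood above Col8a1 in all mice except mouse 41. The ratio of the chains on this scale was 1.09, 0.684, 1.93, 1.99 and 3.02 in Wt mice, and its Tg lowest, median and highest values were 1.06, 2.10 and 2.91. The Tg range lay within the Wt range, and the exact permutation test of the log2 ratio gave p = 0.497.

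Col9a3 encodes a chain of type IX collagen, which lies on the surface of collagen fibrils and is best known from cartilage. The gene is at chr2:180597790-180622189 on the plus strand with 33 merged exons. Tcfl5 overlaps 234 bases of its exons on the opposite strand, and whether strand was used in counting is not given in the sources used here, so reads there cannot be told apart. Col9a3 was at 5.43, 2.55, 5.22, 4.08 and 5.23 CPM in Wt mice, and in Tg mice the lowest, median and highest were 4.08, 11.4 and 18.8 CPM. Again mice 32, 68, 69, 91 and 92 were above all Wt mice, and mice 67 and 93 were within the Wt range. Means were 4.50 ± 1.21 CPM in Wt (SD, n = 5) and 10.5 ± 5.13 CPM in Tg (SD, n = 7). The fold change of Col9a3 was 1.24 (SE 0.347, adjusted p = 0.610), and 1.11 without mouse 41, with p = 0.0341 by exact permutation. With the choroid plexus score it was 0.32, with the oligodendrocyte score 0.28 and in batch 1 alone 0.70. DESeq2 gave 1.23 with an adjusted p of 0.0764, under the threshold, and no other setting brought Col9a3 under it.

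Col18a1 encodes the chain of type XVIII collagen, a heparan sulfate proteoglycan of basement membranes whose end is released as endostatin. It lies at chr10:77052178-77166548 on the minus strand, with 44 merged exons in 5 transcripts. RefSeq gives it 2 promoter windows, of which chr10:77166531-77166780 holds 3 GC boxes and 1 CCAAT, and chr10:77113706-77113955 holds 0 of either. Wt mice had 4.96, 5.39, 5.22, 5.50 and 1.69 CPM of Col18a1, and in Tg mice the lowest, median and highest were 6.40, 8.32 and 10.4 CPM. Each of the 7 Tg mice exceeded each of the 5 Wt mice, as held for 35 genes in all (0.22%), and Wt mouse 95 stood far below the others. Means were 4.55 ± 1.61 CPM in Wt (SD, n = 5) and 8.45 ± 1.27 CPM in Tg (SD, n = 7). The fold change of Col18a1 was 0.96 (SE 0.223, adjusted p = 0.597), 1.30 without mouse 41 and 0.72 (SE 0.158) without mouse 95. The exact permutation test, which held neither batch nor sex fixed, gave p = 0.00126, the smallest it can give. This p follows from the separation of the groups given above and adds nothing to it. By unadjusted p the gene ranked 19 of 15928 in edgeR, and DESeq2 gave 0.95 with an adjusted p of 0.0233. These values come from the contrast through which the gene received its name, so they are descriptions.

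Col23a1 encodes a transmembrane collagen whose outer part can be shed from the cell surface. The gene spans chr11:51289920-51583918 on the plus strand with 30 merged exons. Its 250 bases before the start (RefSeq, GRCm38.p6, chr11:51289670-51289919, plus strand) are shown as those of the chain that was lower in Tg mice, with the GC box in capitals.
Col23a1: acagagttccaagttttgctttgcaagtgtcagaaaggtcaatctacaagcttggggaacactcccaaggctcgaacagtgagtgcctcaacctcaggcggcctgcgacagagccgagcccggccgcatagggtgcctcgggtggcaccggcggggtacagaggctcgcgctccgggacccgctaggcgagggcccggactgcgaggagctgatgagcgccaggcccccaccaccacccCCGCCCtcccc
This window holds 1 GC box and has a GC content of 66.0%. Col23a1 was at 15.4, 16.2, 17.0, 14.8 and 19.2 CPM in Wt mice, and in Tg mice the lowest, median and highest were 8.72, 13.6 and 15.2 CPM. Of the 7 Tg mice 6 were below all Wt mice, mouse 92 was within the Wt range, and mouse 32 was far below the other Tg mice. Complete separation in this direction, which Col23a1 did not reach, was found for 18 genes (0.113%). Means were 16.5 ± 1.74 CPM in Wt (SD, n = 5) and 13.1 ± 2.06 CPM in Tg (SD, n = 7), a ratio of 0.792. The fold change was -0.34 (SE 0.130, adjusted p = 0.632), -0.40 without mouse 41 and -0.28 without mouse 32, with p = 0.00631 by exact permutation. All 7 named markers of excitatory neurons were lower in Tg as well, at -0.22 for Grin2a to -0.36 for Shank2. Over all 1349 named genes 595 were lower. The part of neurons in the level of Col23a1 was not tested.

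**Figure D1:**
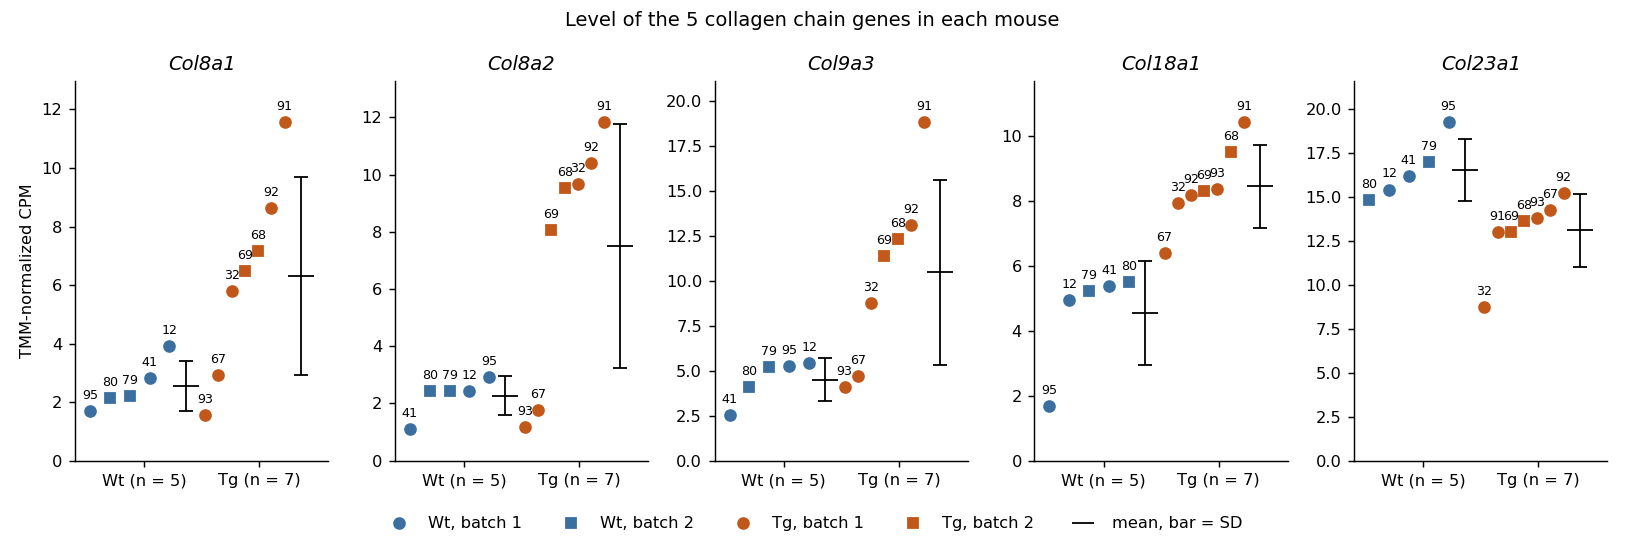
TMM-normalized CPM (vertical axis) of each chain in each mouse, with mouse numbers, Wt in blue and Tg in orange, batch 1 as circles and batch 2 as squares; points of a group run from low to high, and the bars are mean ± SD. In Col8a1, Col8a2 and Col9a3 the same 5 Tg mice lie above all Wt mice and mice 67 and 93 do not, while in Col18a1 all 7 Tg mice do.

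Spread among Tg mice differed between the chains. The coefficient of variation in Tg was 53.4% for Col8a1, 56.9% for Col8a2 and 49.0% for Col9a3, and 15.01% for Col18a1 and 15.79% for Col23a1. In Wt mice it was 33.8%, 30.04%, 26.9%, 35.4% and 10.5% in the same order. Single mice carried much of some of these values. Wt mouse 95 had 1.69 CPM of Col18a1 beside 4.96 to 5.50 in the other Wt mice. Wt mouse 41 had 1.11 CPM of Col8a2 beside 2.42 to 2.93, and Tg mouse 32 had 8.72 CPM of Col23a1 beside 12.99 to 15.2 in the other Tg mice. The coefficients without these mice were not computed, so the order of the chains by spread may rest on them. Mouse 91 had the highest Tg level of Col8a1, Col8a2, Col9a3 and Col18a1.

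Per kilobase of merged exon, Col23a1 had the highest Wt level at 2.88 ± 0.302 CPM per kb (SD, n = 5). Col9a3 followed at 1.17 ± 0.315, then Col18a1 at 0.648 ± 0.230, Col8a2 at 0.505 ± 0.152 and Col8a1 at 0.326 ± 0.110 CPM per kb. Of these neighbours, Col18a1 and Col8a2 lay within 1 SD of each other, and the others did not. Wt mouse 95, at 0.24 CPM per kb of Col18a1 beside 0.706 to 0.783 in the other Wt mice, lowered that mean and widened its SD. The neighbours were not compared without this mouse. In Tg mice the levels per kb were 2.72 ± 1.33 for Col9a3, 2.28 ± 0.36 for Col23a1, 1.67 ± 0.950 for Col8a2, 1.20 ± 0.181 for Col18a1 and 0.806 ± 0.430 for Col8a1 (SD, n = 7). In Tg every neighbouring pair in this order differed by less than the larger of its SDs.

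Within batch 1, with 3 Wt and 5 Tg mice, Tg means were 6.10 CPM for Col8a1, 6.98 for Col8a2, 9.91 for Col9a3, 8.27 for Col18a1 and 12.99 for Col23a1 (n = 5). Wt means there were 2.81, 2.16, 4.40, 4.01 and 16.9 CPM (n = 3). Without covariates, a fit chosen after seeing the data, the fold changes in this batch were 1.122 (SE 0.566), 1.69 (SE 0.718), 1.17 (SE 0.491), 1.05 (SE 0.327) and -0.38 (SE 0.179). With the sex term they were smaller, at 0.63 (SE 0.594) for Col8a1, 0.91 (SE 0.846) for Col8a2, 0.70 (SE 0.530) for Col9a3 and 0.84 (SE 0.348) for Col18a1. Col23a1 gave -0.30 (SE 0.205). The sex term rests on 3 mice labelled male, mouse 41 among them, and without that mouse the values were 0.81, 0.78, 0.58, 1.19 and -0.34. In batch 2, Tg means (n = 2, both male) were 6.83 CPM for Col8a1, 8.81 for Col8a2, 11.9 for Col9a3, 8.91 for Col18a1 and 13.3 for Col23a1. Wt means there (n = 2, both female) were 2.16, 2.43, 4.65, 5.36 and 15.9 CPM.

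Batch and sex were compared within the same model, and genes were not ranked for naming by either. For batch 2 against batch 1 the fold change was 0.04 (SE 0.434) for Col8a1, 0.41 (SE 0.517) for Col8a2, 0.28 (SE 0.358) for Col9a3, 0.31 (SE 0.228) for Col18a1 and -0.04 (SE 0.138) for Col23a1. For males against females it was -0.31 (SE 0.420) for Col8a1, -0.45 (SE 0.508) for Col8a2, -0.35 (SE 0.349) for Col9a3, -0.34 (SE 0.221) for Col18a1 and 0.14 (SE 0.130) for Col23a1. Without mouse 41 the sex values were -0.49, -0.29, -0.20, -0.69 and 0.19 in that order, and the batch values 0.19, 0.28, 0.16, 0.59 and -0.08. By edgeR 0 of the 5 chains and 0 genes in all (0%) were called for batch, and likewise for sex. An unadjusted p under 0.05 was found for 0 of 5 chains and 1217 of 15928 genes in batch. For sex it was found for 0 of 5 chains and 1801 of 15928 genes. At these shares 0 of 5 does not set the chains apart from other genes. DESeq2 called 0 chains in either, beside 24 of the 14690 genes it adjusted for batch and 175 of 15926 for sex. Without mouse 41 an unadjusted p under 0.05 was found for 1 of 5 chains, Col18a1, in batch, beside 631 of 15928 genes. For sex it was found for the same chain, beside 838 of 15928 genes. Then 0 chains and 0 genes were called for batch, and 0 chains and 1 gene, Xist, for sex. Other mice moved these values too. With single mice left out, the sex value of Col8a2 ran from -0.95 without Wt mouse 95 to -0.10 without Tg mouse 67, and that of Col9a3 from -0.64 to -0.13 without the same mice. For Col8a1 it ran from -0.49 without mouse 41 to -0.07 without mouse 67, for Col18a1 from -0.69 without mouse 41 to -0.10 without mouse 95, and for Col23a1 from 0.065 without Tg mouse 32 to 0.19 without Tg mouse 92. The direction by sex was the same for each chain throughout. The batch value ran from -0.14 to 0.22 for Col8a1, 0.16 to 0.82 for Col8a2, 0.12 to 0.51 for Col9a3, 0.12 to 0.59 for Col18a1 and -0.093 to 0.004 for Col23a1. Without mouse 95, 0 of 5 chains and 540 of 15928 genes were called for sex. The difference of the Tg fold change between males and females ran from -1.66 (SE 1.49) for Col8a2 to 0.04 (SE 0.639) for Col18a1. EdgeR called 0 chains and 0 genes (0%) for that term, with an unadjusted p under 0.05 for 0 of 5 chains and 567 of 15928 genes. Without mouse 41, which leaves 1 Wt male assumed to vary like the other mice, the difference ran from -2.21 (SE 1.58) for Col8a2 to 1.10 (SE 0.441) for Col18a1. Calls are not given for this fit, because 1 mouse shows no spread of its own.

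**Figure D2:**
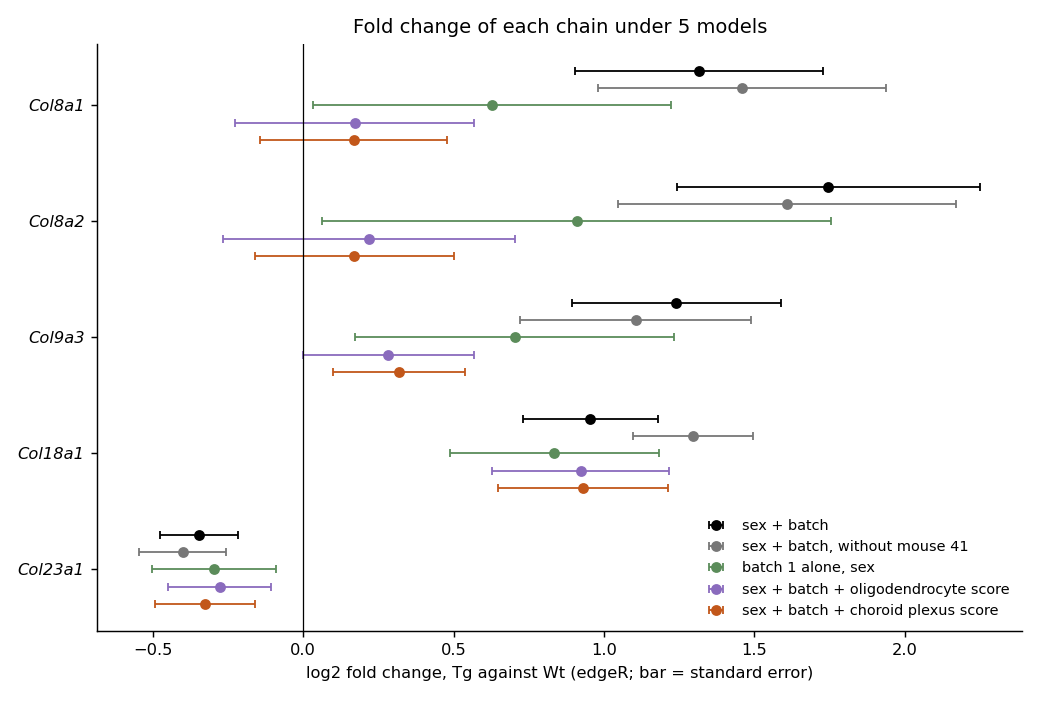
Log2 fold change of Tg against Wt (horizontal axis) for each chain from edgeR under 5 models, with standard errors as bars. With a choroid plexus or oligodendrocyte marker score in the model, Col8a1 and Col8a2 are at 0.17 to 0.22 and Col9a3 at 0.32 and 0.28, all far below their values without a score. Col23a1, at -0.33 and -0.28, and Col18a1 move little, and Col9a3 is then as far from 0 as Col23a1.

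Markers of other cell types were summed in each mouse beside these levels. All 15 choroid plexus genes of the list had a name, and their summed level was 598, 105, 353, 211 and 142 CPM in Wt mice. In Tg mice 32, 68, 69, 91 and 92 it was 1313, 2189, 1836, 2368 and 1930.0 CPM, and in Tg mice 67 and 93 it was 101 CPM in each. Thus the 5 Tg mice with the most choroid plexus transcripts were the 5 above all Wt mice in Col8a1, Col8a2 and Col9a3. Ttr, the transthyretin gene, was most abundant in these 5 mice and in Wt mice 12 and 79, at 1581 CPM or 66.8% of the sum in mouse 91. In mice 41, 80, 95, 67 and 93 Enpp2, which oligodendrocytes are also known to express, was most abundant, at 60.7% to 73.4% of the sum, and Ttr was at 16.9, 45.8, 33.0, 7.21 and 11.7 CPM. Kcne2 (mice 41 and 67), Tmem72 (mouse 41) and Slc4a5 (mouse 93) were at 0 counts. Of the 12 oligodendrocyte genes all had a name, with sums of 3736, 1129, 2075, 1658 and 1527 CPM in Wt mice and 1545, 3761 and 6249 CPM as lowest, median and highest Tg values, Mbp being most abundant and no gene at 0.

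With the choroid plexus score added to the model, the fold change was 0.17 (SE 0.310) for Col8a1, 0.17 (SE 0.331) for Col8a2 and 0.32 (SE 0.219) for Col9a3. For Col18a1 it was 0.93 (SE 0.282), and for Col23a1 -0.33 (SE 0.166). The oligodendrocyte score gave 0.17 (SE 0.396), 0.22 (SE 0.485), 0.28 (SE 0.285), 0.92 (SE 0.294) and -0.28 (SE 0.171) in the same order. Without mouse 41 the choroid plexus score gave 0.39, 0.12, 0.24, 1.24 and -0.37, and the oligodendrocyte score 0.38, 0.23, 0.27, 1.17 and -0.32. Tg mice 67 and 93, which had the least Ttr, had 6.40 and 8.37 CPM of Col18a1, above all Wt mice. Marker genes received their names through the same contrast as the chains, and the part of either tissue in the chain levels was not tested.

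Of the 10 ependyma genes 9 had a name, with sums of 11.7 to 25.1 CPM in Wt and 16.0 to 62.3 CPM in Tg, Mfrp being most abundant in Wt mouse 12 and Tg mice 32, 68, 69, 91 and 92, at 0 in mouse 67, and Calml4 at 0 in mouse 41. In the other mice Stk36 or Foxj1 was most abundant. Of 13 meningeal and fibroblast genes 5 were named (20.03 to 90.8 CPM in Wt, 33.9 to 83.7 CPM in Tg, Igf2 most abundant). Of 12 endothelial genes 4 were named (22.8 to 30.7 and 27.1 to 42.6 CPM, Arhgef15 or Esam most abundant). Astrocyte genes (6 of 9) summed to 2777 to 3569 and 2528 to 3156 CPM, of which Slc1a2 made up 67.9%. Slc1a2 (-0.32) and Slc1a3 (-0.19) were lower in Tg, and the 4 others, Gfap (1.011), Agt (0.75), Slc6a9 (0.49) and S100b (0.31), were higher. Microglial genes (5 of 10, C1qb or C1qa most abundant) summed to 59.4 to 75.8 and 75.9 to 102 CPM, and excitatory neuron genes (7 of 9, Camk2a) to 4404 to 7013 and 3745 to 5188 CPM. The 5 microglial genes were all higher in Tg, at 0.27 (C1qa) to 0.68 (Ly86), and all 5 had an unadjusted p under 0.05. So had 81.3% of all 1349 named genes, because names came through this same contrast. The neuronal sum was 4688, 7013, 5130, 4404 and 6033 CPM in Wt mice, and Tg mice 32 and 91 were below all of them. All 7 neuronal genes were lower in Tg, and all except Slc17a7 had an unadjusted p under 0.05. All named genes of the choroid plexus, oligodendrocyte, ependyma, meningeal and endothelial lists were higher in Tg. Over all 1349 named genes 754 were higher and 595 lower. Markers without a name were not analysed here, so these directions describe the named markers only. None of the meningeal, endothelial, astrocyte, microglial and neuronal lists had a gene at 0. Of 10 pericyte and smooth muscle genes 0 had a name, so they were not analysed here.

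The choroid plexus score, the mean log2 CPM of the list, had its widest gap between mice 12 and 32, at 0.95 beside 0.82 for the next gap. This left 5 Tg mice above it and 7 mice below, a division made after the values were seen, so no correlation over all 12 mice is tested. Among the 7 lower mice (5 Wt, Tg 67 and 93), Pearson's r with the score was 0.68 for Col9a3 (exact permutation p = 0.0843) and 0.66 for Col8a2 (exact permutation p = 0.112). It was 0.29 for Col8a1 (exact permutation p = 0.520), 0.13 for Col23a1 (exact permutation p = 0.780) and -0.08 for Col18a1 (exact permutation p = 0.877). Spearman's rho was 0.75 for Col9a3 and for Col8a2 (exact permutation p = 0.0663 for each), 0.14 for Col8a1 (0.783), 0.25 for Col23a1 (0.595) and -0.50 for Col18a1 (0.267). These 7 mice mix genotypes, sexes and batches, and the permutation did not hold these fixed, so differences between genotypes enter r, rho and their p. For Col18a1, Tg mice 67 and 93 had low scores (0.01 and 0.49) and the highest levels of the 7 mice (6.40 and 8.37 CPM). After Benjamini-Hochberg adjustment over these 5 relations the exact p was 0.280 or more for r and 0.166 or more for rho. No correlation was computed for the 5 mice left in batch 1 or after leaving out 2 mice, fewer than the 6 taken as a minimum.

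**Figure D3:**
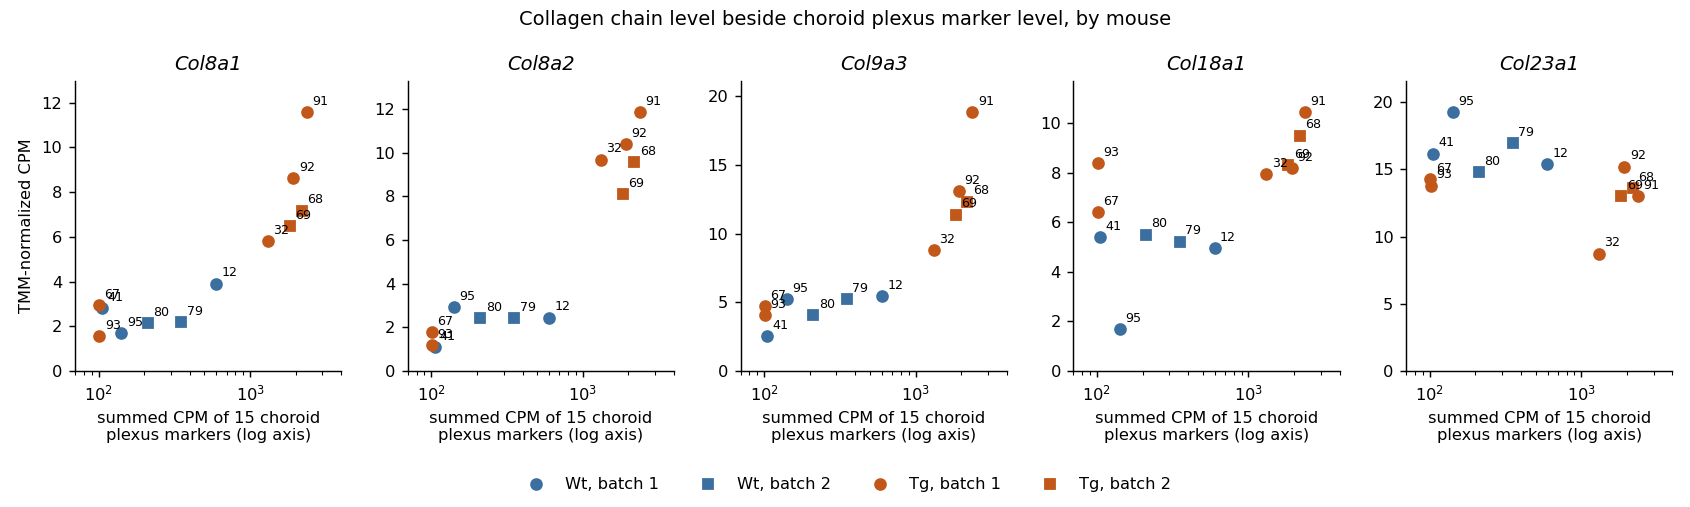
TMM-normalized CPM of each chain (vertical axis) against the summed CPM of 15 choroid plexus markers (horizontal log axis), 1 point per mouse with its number, Wt in blue, Tg in orange, batch 1 as circles and batch 2 as squares. Mice 67 and 93 sit at the low end of the marker axis, with Wt-range or lower levels of Col8a1, Col8a2 and Col9a3 and with Col18a1 above all Wt mice.

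Among named genes, the highest Pearson correlations of log2 CPM over the 12 mice were taken as a description of likeness, without a test. For Col9a3 they were with Kl (0.973), Foxj1 (0.962) and Rdh5 (0.961), and for Col8a2 with Kl (0.973), Drc7 (0.965) and Rasgrp3 (0.955). Kl is in the choroid plexus list and Foxj1 and Drc7 are in the ependyma list. Col8a1 was most like Cgnl1 (0.962), Slc4a2 (0.960) and Snx33 (0.954). Col18a1 was most like Hspb8 (0.912), Psd2 (0.909) and Fgd3 (0.904), and Col23a1 most like Scg3 (0.867), Pcdh19 (0.853) and Krt77 (0.851). The 12 mice share genotype and batch differences, which enter all of these values.

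Genes that make, process, break down or bind collagen were counted from 6 lists of 111 genes, of which 21 had a name. In edgeR 20 were higher and 1 lower in Tg, with a median fold change of 0.68, and 0 were called at an adjusted p under 0.1. An unadjusted p under 0.05 was found for 15 higher and 1 lower, or 76.2% of the 21, beside 666 higher and 431 lower, or 81.3%, of the 1349 named genes. Over all named genes 754 were higher and 595 lower, with a median of 0.32. With the choroid plexus score added, 19 of the 21 were higher and 2 lower with a median of 0.33 (726 higher and 623 lower of all named genes, median 0.08). With the oligodendrocyte score 17 were higher and 4 lower with a median of 0.23 (674 and 675 of all named genes, median -0.0). In batch 1 alone 18 were higher and 3 lower with a median of 0.35 (745 and 604 of all named genes, median 0.15). An unadjusted p under 0.05 was then found for 2 of the 21 with either score and 1 in batch 1 alone, beside 261, 179 and 240 of all named genes (19.3%, 13.3% and 17.8%). By DESeq2 1 of the 21 was called, Ctsd (0.35, adjusted p = 0.0782). A gene could enter these counts only through its place in the naming table.

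Both named folding enzymes, the lysyl hydroxylases Plod1 (0.41, SE 0.140) and Plod2 (0.60, SE 0.250), were higher in Tg. They differed under other models, since Plod1 was at 0.16 with the choroid plexus score, 0.08 with the oligodendrocyte score and 0.18 in batch 1 alone, where Plod2 was at 0.63, 0.78 and 1.06. In batch 1 without covariates Plod1 was at 0.32 and Plod2 at 0.80. Of 4 named processing genes, Pcolce (1.19, SE 0.418) and Pcolce2 (1.31, SE 0.390), which enhance removal of the procollagen end, and the cross-linking oxidase Loxl3 (0.55, SE 0.214) were higher. Furin, a proprotein convertase, was lower (-0.21, SE 0.0963). It was at -0.28 with the choroid plexus score, -0.215 with the oligodendrocyte score and -0.2 in batch 1 alone. Loxl3 was at 0.37 with the choroid plexus score and 0.58 in batch 1 alone. With the choroid plexus score Pcolce was at 0.34 and Pcolce2 at 0.33, and with the oligodendrocyte score at 0.23 and 0.37, where Loxl3 was at 0.34. In batch 1 alone Pcolce was at 0.35 and Pcolce2 at 0.65, and there without covariates at 0.79 and 1.39. Pcolce was at 1.83 without Wt mouse 12. Of 4 named degradation genes, all higher, Fap (1.34, SE 0.454) is a membrane protease. Ctsk (0.77, SE 0.319) and Ctsd (0.36, SE 0.0913) are lysosomal proteases. Levels of Fap were very low, 0.296 to 0.70 CPM in Wt and 0.167 to 1.95 CPM in Tg, which limits its fold change. Those of Ctsk were 0.532 to 1.17 CPM in Wt and 0.634 to 2.11 CPM in Tg. Fap was at 0.45 with the choroid plexus score, 0.13 with the oligodendrocyte score and 1.04 in batch 1 alone, or 0.93 there without mouse 41. Ctsk was at 0.32 and 0.31 with these scores. Its direction turned in batch 1 alone with the sex term, at -0.03, and not there without covariates, at 0.37. Ctsd was at 0.325 with the choroid plexus score, 0.30 with the oligodendrocyte score and 0.25 in batch 1 alone.

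Receptors of collagen with a name were Itga11 (0.68, SE 0.285), an integrin chain, and the kinase Ddr1 (0.40, SE 0.155). Itga11 was at 0.69 with the choroid plexus score, 0.53 with the oligodendrocyte score and 0.665 in batch 1 alone. Ddr1 was at 0.08, -0.01 and 0.13 in the same order. In batch 1 without covariates Ddr1 was at 0.25. Among 3 basement membrane partners, all higher, Nid1 (0.43, SE 0.181), which links laminin to collagen networks, had an unadjusted p under 0.05. Nid1 was at 0.11 with either score and 0.03 in batch 1 alone, and turned to -0.03 there without mouse 41. In batch 1 without covariates Nid1 was at 0.39. Among 6 fibril partners, all higher, this held for Tgfbi (0.95, SE 0.267), Postn (0.79, SE 0.309), Fbln5 (0.73, SE 0.320) and the proteoglycan Bgn (0.64, SE 0.263), which was at -0.01 in batch 1 without mouse 41. Single Wt mice moved these values, with Fbln5 at 0.42 without mouse 41 and 1.09 without mouse 12, and Bgn at 0.98 without mouse 12. With the choroid plexus score Tgfbi was at 0.48, Postn at 0.68, Fbln5 at 0.42 and Bgn at 0.34, and with the oligodendrocyte score they were at 0.39, 0.58, 0.25 and 0.21. Without mouse 41 the choroid plexus score gave 0.51, 0.53, 0.16 and 0.18, and the oligodendrocyte score 0.45, 0.48, 0.089 and 0.115. In batch 1 alone the values were 0.41, 0.42, 0.46 and 0.19 in the same order, and there without covariates 0.81, 0.72, 0.75 and 0.47. With the sex term but without mouse 41, Postn was at 0.25 and Fbln5 at 0.16 in that batch. Levels of Postn were low as well, 0.5 to 1.93 CPM in Wt and 1.33 to 2.63 CPM in Tg.

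**Figure D4:**
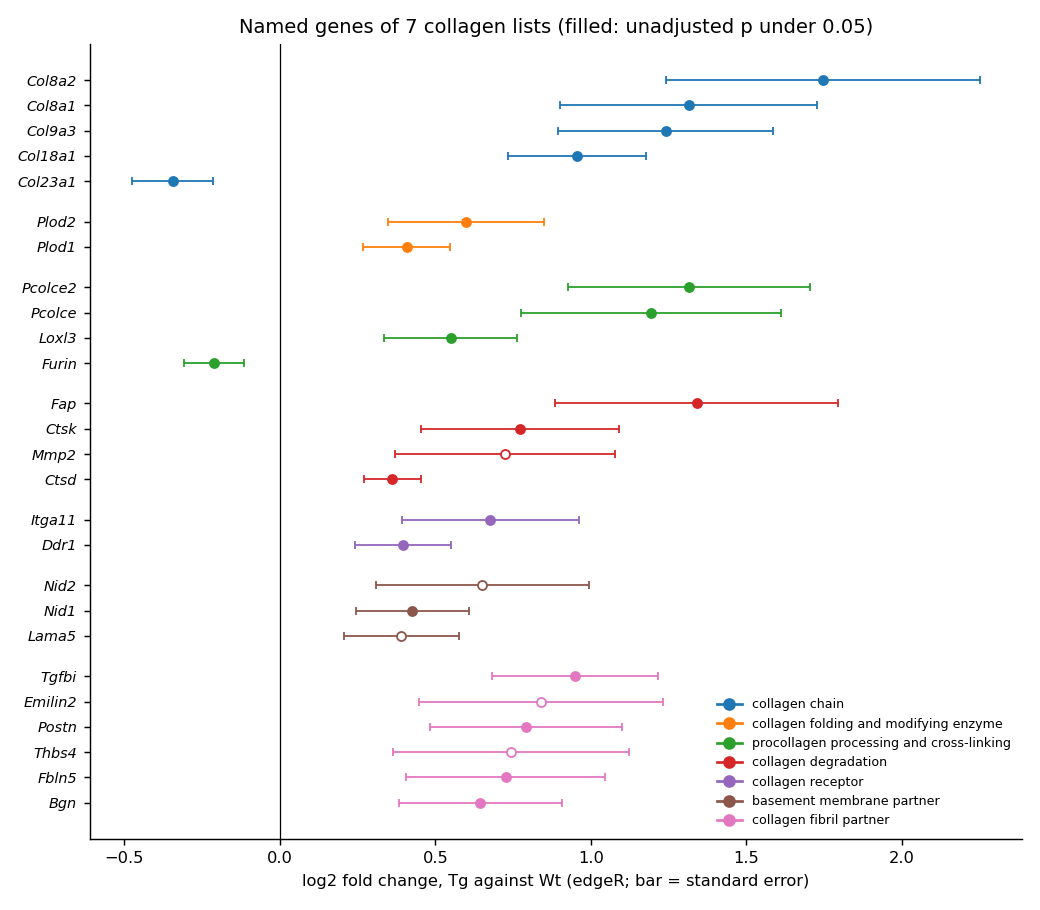
Log2 fold change of Tg against Wt (horizontal axis) from edgeR for the 26 named genes of 7 collagen lists, coloured by list, with standard errors as bars and filled points for an unadjusted p under 0.05. Col23a1 and Furin are the 2 genes below 0.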

How the data were processed

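The authors removed ribosomal RNA, sequenced with Ion Torrent, aligned reads to mm10 with STAR and Bowtie 2, removed low-count genes with edgeR and deposited raw counts per gene. They also deposited a normalization factor per library, a ratio. Among deposited columns, 3 were not used. A gene was named by a single match of its mean normalized count to the study's DESeq2 table within a relative difference of 1e-09 (1349 of 1684 genes, and 0 in 10 trials with shifted means), and no fold change or p of that table was used. Members and lists were chosen with earlier results of these data known. The text names the 5 chains, App and Xist, list genes with an unadjusted p under 0.05 or a direction against their list, the 3 most alike genes of each chain, and marker genes.

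All genes were fitted with edgeR 4.0.16 (R 4.3.3, quasi-likelihood F-test, TMM, filterByExpr, which removed 0 genes, Benjamini-Hochberg adjustment, threshold 0.1). The alternatives were DESeq2 1.42.0, limma 3.58.1 (voom), other normalizations, filters and covariates, batch 1 without batch 2, and fits that leave out a mouse. Exact permutation tests were two-sided, on log2 CPM with a prior count of 2 (Python 3.11.15, numpy 2.4.6, scipy 1.17.1). The naming and the fits were tested on simulated data. Gene models came from GENCODE on GRCm38 (mm10) and promoters from a table of RefSeq windows, in which 4 of the 5 chains were matched. A promoter of Col9a3 was not analysed here.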

Additional observations from a re-analysis of the deposited data

Results flagged for a closer look

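In 3 of 10 sets of values, each a chain in 1 group, the lowest mouse lay far from the others by Dixon's criterion, which by chance marks about 1 in 20 sets. Wt mouse 95 had 1.69 CPM of Col18a1, with a gap of 0.859 of the range of the Wt mice. Wt mouse 41, whose Xist level goes against its label, had 1.11 CPM of Col8a2, with a gap of 0.723 of the range. Tg mouse 32 had 8.72 CPM of Col23a1, with a gap of 0.659 of the range of the Tg mice. No cause of these values was tested.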

How the results depend on the processing

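For Tg against Wt, the direction of each chain was the same under all 16 alternative settings, 4 of them chosen after seeing the data, and with each of the 12 mice left out. DESeq2 brought Col18a1 (0.95, adjusted p 0.0233, other settings up to 1.0) and Col9a3 (1.23, adjusted p 0.0764) past the threshold, and the cause was not tested. With single mice left out, the fold change ran from 0.72 to 1.30 for Col18a1, 1.02 to 1.498 for Col9a3, 1.10 to 1.504 for Col8a1, 1.59 to 2.18 for Col8a2 and -0.40 to -0.28 for Col23a1, with no call. The number of genes called, 1, became 56 with DESeq2, 2 with more than 1 CPM in all mice or with either marker score, with or without mouse 41, 0 in each of the 3 fits of batch 1, where fewer mice were fitted, and 1 to 2 with single mice left out (2 without Tg mouse 93). For batch the count of 0 became 24 with DESeq2. For sex the count of 0 became 175 with DESeq2 and 0 to 540 with single mice left out (540 without Wt mouse 95, 1 without Wt mouse 41). The batch coefficient changed sign for Col8a1, at -0.139 to 0.222, and for Col23a1, at -0.093 to 0.004, with single mice left out. List genes with an unadjusted p under 0.05 were followed singly, a choice made after seeing the data. Of these, Ctsk turned to -0.03 in batch 1 alone with the sex term. Without mouse 41 that fit gave -0.019 for Ctsk, -0.008 for Bgn and -0.026 for Nid1. In batch 1 without covariates these genes kept their direction, at 0.365, 0.472 and 0.387. Ddr1 turned to -0.008 with the oligodendrocyte score. Of the 21 list genes, 2 were lower with the choroid plexus score, 4 with the oligodendrocyte score and 3 in batch 1 alone. Genes not followed singly were among them. DESeq2 called Ctsd (0.35, adjusted p 0.0782). The difference of the Tg fold change between the sexes turned to 0.216 for Col8a1 without mouse 41, a fit also chosen after seeing the data. No paired analysis was possible because mice of the groups share no replicate numbers. The cause of these differences was not tested.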

Other observations

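Several limits bear on the values above. Names exist for 1349 of 15928 genes and favour genes with a small p in the Tg against Wt contrast, so the directions of named genes do not represent all genes. The other collagen chains were not analysed here. The chains were at low levels, with fewer than 20 CPM in all mice, and the spread between mice limits the comparisons. Wt and Tg groups differ in sex and batch, and in batch 2 genotype and sex cannot be told apart. The sections mix regions and cell types, so the source of a transcript in the tissue was not tested.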
